A study of Mus musculus with 8 samples.

Results

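The stromal and extracellular matrix genes described here are 38 listed genes, taken from the 25124 genes of the deposited table by symbol. Of these, 36 were found under the listed symbol, and Ccn2 and Ccn1 were found through their older names, Ctgf and Cyr61. They encode collagens, the proteins that bind or process them, the matrix-bound growth factor regulators, and the receptors and contractile proteins that fibroblasts, pericytes and smooth muscle cells share. All are described in osteoclast precursor (OCP) cells, which are bone marrow-derived macrophages that can fuse into bone-resorbing osteoclasts.

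The 8 RNA-seq libraries fell into 4 groups of 2: no PRDX1 + no RANKL, PRDX1 + no RANKL, no PRDX1 + RANKL, and PRDX1 + RANKL. Every group received M-CSF, the growth factor that keeps macrophages alive. PRDX1 is peroxiredoxin 1, an antioxidant enzyme that also acts outside the cell as a ligand of the receptor TLR4. It was given as recombinant protein at 200 nM. RANKL, the cytokine that drives osteoclast formation, was given at 100 ng/mL, and RNA was taken after 48 h of treatment. The labels name C57BL/6 mice 6 to 8 weeks old, while the study's culture methods name the ICR strain. Marrow cells that did not attach during 16 h in M-CSF at 5 ng/mL were grown for 3 days at 30 ng/mL, and the cells that then adhered were used. No source states that the 2 libraries of a group came from separate mice or cultures, so p-values measure the spread between these libraries, which may be technical. Library totals were 27284693 to 46171566 reads, and the PRDX1 + RANKL libraries were deeper than the no PRDX1 + RANKL libraries.

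Matrix of the connective tissues is built by mesenchymal cells. Fibrillar collagens I, III and V form the fibres, the small proteoglycans and matrix glycoproteins such as fibronectin and SPARC regulate their assembly, and lysyl oxidases cross-link them. Macrophages express little of the fibrillar collagens, while some matrix glycoproteins and type IV collagens can be made by many cell types. The defining genes of marrow stroma, such as Col1a1, Col1a2, Dcn and Pdgfra, are therefore commonly used to look for fibroblastic cells in cultures of blood-forming lineage.

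The macrophage label of the cultures was met by all 14 genes of a macrophage list, which had reads in all 8 libraries. Csf1r, the M-CSF receptor, lay between 241 and 514 FPKM (fragments per kilobase of transcript, scaled to the library total, so that levels of genes can be compared per length). The stromal genes were measured far below this. Of the 38, 22 had a mean FPKM of at least 1 over the 8 libraries and 10 had a mean under 0.5. Apart from Igfbp4, the highest level of a member in any library was 10.7 FPKM (Bgn), and the 37 members other than Igfbp4 together summed to 56.0 to 113 FPKM in a library. In bulk RNA, fewer cells of a type and less RNA per cell cannot be told apart.

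**Figure D1:**
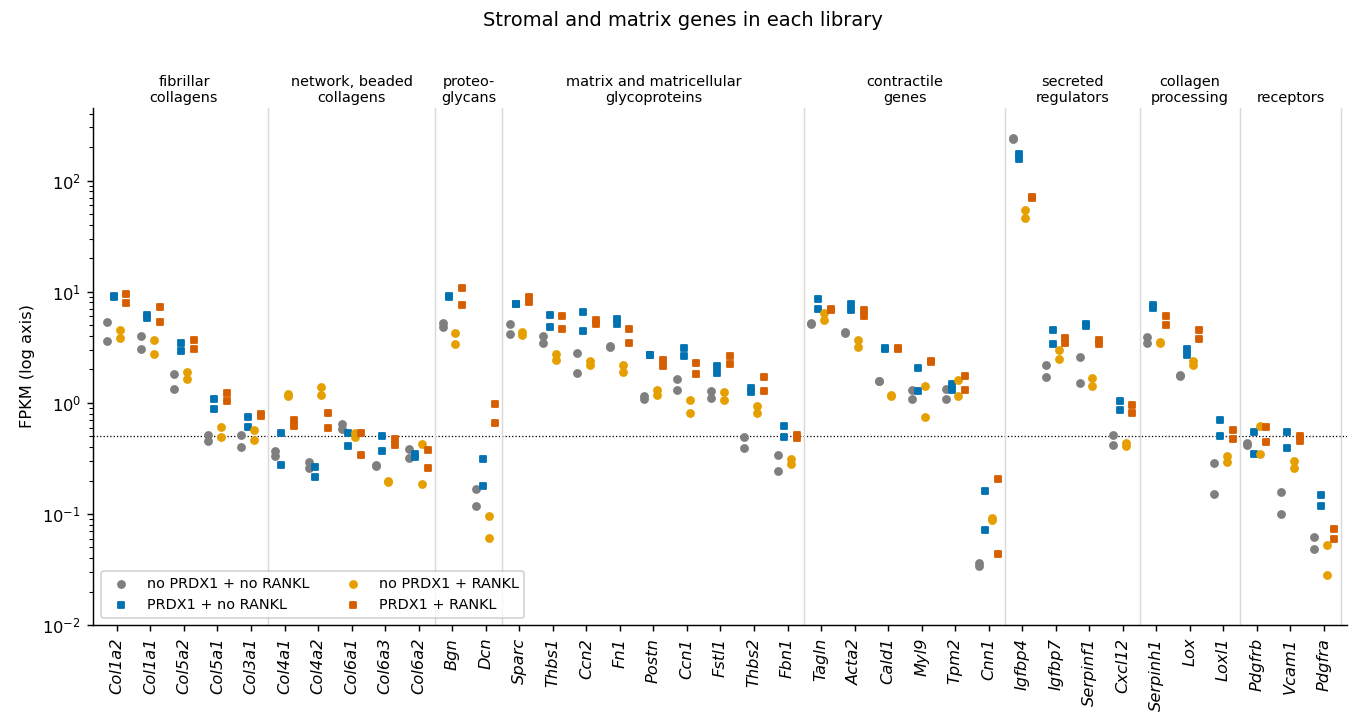
FPKM (log axis) of 37 members in each of the 8 libraries, ordered by role and by mean level, with the 2 libraries of a group as separate points; Lum, at 0 in 6 libraries, is left out. The dotted line marks 0.5 FPKM, the minimum mean level for the test. For most members the 2 pairs of squares (with PRDX1) lie above the 2 pairs of circles (without), while Igfbp4 and the type IV collagens follow another order.

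Most of the members that could be tested were higher with PRDX1. Without RANKL, 15 of these 28 were called higher with PRDX1, against 3.8% of all genes tested, and 0 were called lower, against 1.99%. The median log2 fold change of the 28 was 0.62, beside -0.04 for all genes. With RANKL, 15 of the 28 were again called higher with PRDX1, against 6.03% of all genes, and 0 lower, against 4.17%. Their median was 0.64, beside -0.06 for all genes. These calls are from limma on log2(FPKM + 1), at an adjusted p under 0.05 and a change of at least 1.5-fold. At an unadjusted p under 0.05, Igfbp4 was lower without RANKL, and Col4a1 and Col4a2 were lower with RANKL.

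The 10 members with a mean under 0.5 FPKM could not enter that test. Read numbers, recovered from FPKM and transcript length, allowed a second test (voom) on 37 members, all but Lum. It called 24 higher and 0 lower by PRDX1 without RANKL, where 6.06% of all genes were called higher and 2.64% lower. With RANKL it called 24 higher and 2 lower, where 9.3% of all genes were called higher and 5.16% lower. Without any test, both PRDX1 libraries lay above both libraries without it for 29 of the 38 members in the absence of RANKL and for 30 of 38 in its presence. The same order was found for 22.6% and 24.4% of the 17377 genes with any read. For 28 members it held in both comparisons, against 11.0% of those genes.

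The 2 comparisons use different libraries, and 11 members were called higher in both, which is 73.3% of the calls of each. Of all genes tested, 2.39% were called higher in both. These were Col1a1, Col1a2, Col5a2, Bgn, Sparc, Fn1, Ccn1, Ccn2, Acta2, Cald1 and Serpinf1. Postn, Thbs2, Serpinh1 and Igfbp7 were called without RANKL, and Fstl1, Lox, Thbs1 and Myl9 with it. None of these 8 passed the test of the difference between the 2 PRDX1 effects (the interaction), so a difference between them was not shown. In linear FPKM, the called members rose 1.68-fold (Sparc) to 2.96-fold (Thbs2) without RANKL, with a median of 1.99-fold. With RANKL they rose 1.80-fold (Lox) to 2.64-fold (Cald1), with a median of 2.08-fold. Since log2(FPKM + 1) understates changes of low genes, the log2 values given below are smaller than the logs of these ratios.

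**Figure D2:**
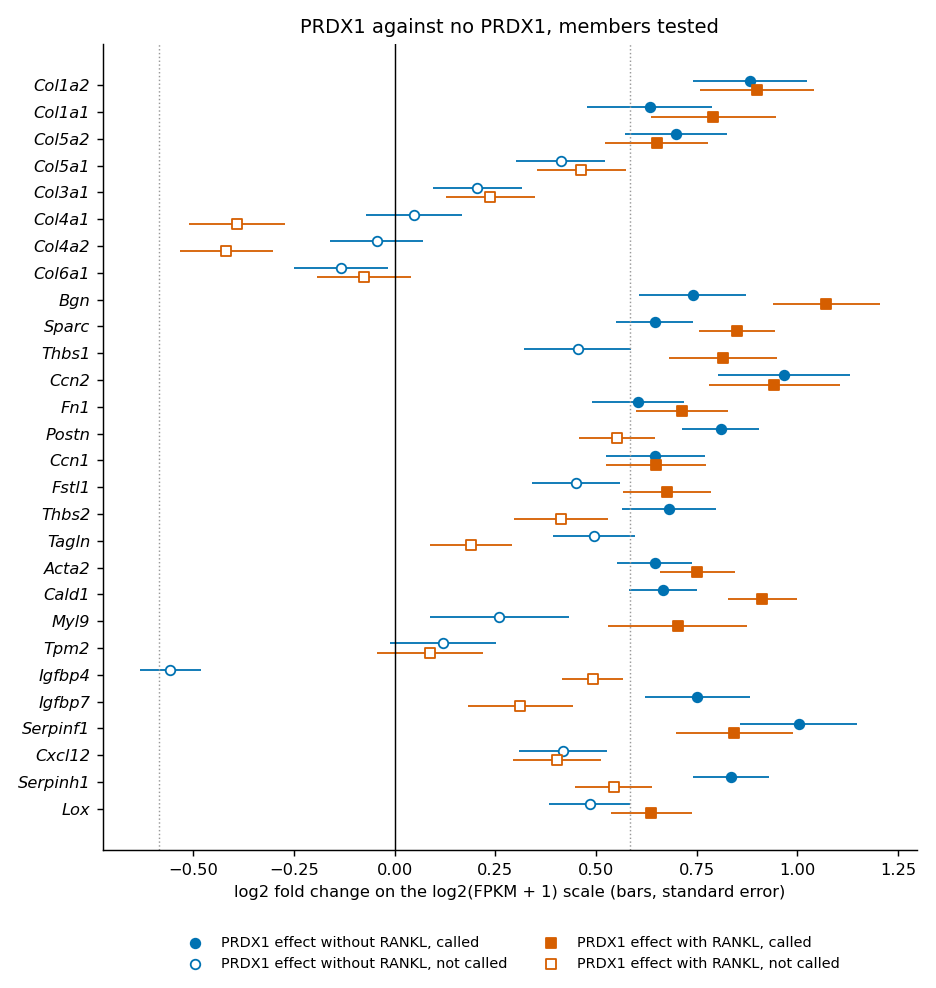
Log2 fold change by PRDX1 on the log2(FPKM + 1) scale, with its standard error, for the 28 members tested, without RANKL (circles) and with RANKL (squares). Filled symbols passed the test, and the dotted lines mark a 1.5-fold change. The filled symbols all lie to the right of 0, in both comparisons, while Igfbp4, Col4a1, Col4a2 and Col6a1 have an open symbol to the left in at least 1 comparison.

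Among the 5 fibrillar collagen genes, 3 were called higher by PRDX1 in each comparison. Col1a2, the alpha 2 chain of type I collagen, had 3.63 and 5.32 FPKM with neither agent, 9.07 and 8.88 with PRDX1 alone, 3.87 and 4.51 with RANKL alone, and 7.84 and 9.56 with both. All 4 libraries with PRDX1 thus stood above all 4 without, whether or not RANKL was present. The log2 fold change was 0.88 ± 0.14 (SE, limma adjusted p = 0.0012) without RANKL and 0.90 ± 0.14 (limma adjusted p = 0.00061) with RANKL. Its partner chain Col1a1 was at 3.06 and 4.0 FPKM with neither agent, 5.81 and 6.17 with PRDX1, 2.74 and 3.69 with RANKL, and 5.31 and 7.34 with both. The groups with and without PRDX1 did not overlap, and the log2 fold changes were 0.63 ± 0.15 (limma adjusted p = 0.0122) and 0.79 ± 0.15 (limma adjusted p = 0.00233). Without no PRDX1 + no RANKL replicate 1 or PRDX1 + no RANKL replicate 2, the Col1a1 call without RANKL was lost, at log2 changes of 0.48 and 0.60.

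Col5a2, a type V chain that regulates fibre diameter, followed at 1.32 and 1.84 FPKM with neither agent, 3.44 and 2.91 with PRDX1, 1.89 and 1.65 with RANKL, and 3.03 and 3.70 with both. Its log2 fold changes were 0.70 ± 0.13 (limma adjusted p = 0.00257) and 0.65 ± 0.13 (limma adjusted p = 0.00234). Leaving out no PRDX1 + no RANKL replicate 1 took the first below the fold threshold (0.55), and leaving out PRDX1 + RANKL replicate 2 did so for the second (0.54). The other type V chain, Col5a1, had 0.457 and 0.515 FPKM at the lowest (neither agent) and 1.04 and 1.23 at the highest (both agents), and was called by voom in both comparisons but not by limma. Col3a1, the type III collagen chain, was low throughout: 0.404 and 0.512 FPKM with neither agent, 0.752 and 0.612 with PRDX1, 0.459 and 0.567 with RANKL, and 0.766 and 0.801 with both. It did not pass limma in either comparison, and passed voom with RANKL.

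The ratio of Col1a1 to Col1a2 in FPKM ranged from 0.640 to 0.841 over the 8 libraries, and that of Col5a2 to Col1a2 from 0.327 to 0.490. The ratio of Col3a1 to Col1a2 was lower in the PRDX1 libraries than in their controls, at 0.111 and 0.0962 with neither agent, 0.0829 and 0.0689 with PRDX1, 0.119 and 0.126 with RANKL, and 0.0977 and 0.0838 with both. The ratio of Igfbp4 to Col1a2 ranged from 7.45 to 65.5.

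The 250 bases before the start of transcription were read for motifs, from RefSeq promoters of build GRCm38.p6 (mm10). Of the 38 members, 26 had an entry, 25 of them at the start of the deposited transcript. These include members that PRDX1 did not change by either test, such as Tpm2, Cnn1 and Col6a1. They lack Col1a1, Col5a2, Fn1 and Ccn2, so the shares below are not those of the members called. The window of Col1a2, the fibrillar collagen with the highest level, lies on chromosome 6 from 4505368 to 4505617, plus strand, and is shown as the example of a collagen promoter. Capitals mark the GC box (GGGCGG or its complement) and the CCAAT box.
Col1a2: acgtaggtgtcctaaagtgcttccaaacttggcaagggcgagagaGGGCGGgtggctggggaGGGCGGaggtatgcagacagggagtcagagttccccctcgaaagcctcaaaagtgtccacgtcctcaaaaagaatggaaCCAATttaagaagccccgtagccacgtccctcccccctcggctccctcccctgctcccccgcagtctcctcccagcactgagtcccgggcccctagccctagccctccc

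Over the 26 members, searched on both strands, GGGCGG was present in 13 windows (50%) and in 32.7% of all 32851 promoter windows of the same length. CCAAT was in 7 (26.9%) against 33.8%, TATAAA in 5 (19.2%) against 12.4%, and GGAATG, the core of the TEAD motif, in 5 (19.2%) against 12.6%. TGANTCA, the AP-1 motif, was in 1 (3.85%) against 6.75%. The NF-kB motif was found in 4 (15.4%) against 7.25% of all windows, and the CArG box, which binds serum response factor, in 1 (3.85%) against 1.47%. These are matches of letters in a window, not sites.

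In the network and beaded collagens the picture differed: 3 of the 5 genes could be tested and 0 were called by PRDX1 in limma, in either comparison. Col4a1 and Col4a2, the chains of type IV collagen of basement membranes, were instead higher with RANKL alone. For Col4a1 the libraries gave 0.371 and 0.332 FPKM with neither agent, 0.277 and 0.531 with PRDX1, 1.21 and 1.15 with RANKL, and 0.617 and 0.702 with both. Col4a2 had 0.295 and 0.262 FPKM with neither agent, 0.214 and 0.266 with PRDX1, 1.39 and 1.17 with RANKL, and 0.599 and 0.812 with both. For both genes the no PRDX1 + RANKL libraries were highest, the PRDX1 + RANKL libraries second, and the 4 libraries without RANKL lowest, with no overlap between these 3 sets.

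The RANKL effect without PRDX1 was 0.69 ± 0.12 (limma adjusted p = 0.000625) on the log2 scale for Col4a1 and 0.83 ± 0.12 (limma adjusted p = 0.000139) for Col4a2, or 3.35-fold and 4.58-fold in linear FPKM. These were 2 of 28 members called higher by RANKL alone, against 11.8% of all genes tested. Both genes reached the limit of 0.5 mean FPKM only through the RANKL libraries, where they were high, so this count is no separate support. Without RANKL their group means, without and with PRDX1, were 0.35 and 0.40 FPKM for Col4a1 and 0.28 and 0.24 for Col4a2. With quantile normalization the change of Col4a1 was 0.58, just under the fold threshold. The lower level with PRDX1 under RANKL passed voom for both genes and did not pass limma. The interaction of Col4a1 passed voom, where 4.72% of all genes were called lower, and 0 members were called lower for the interaction by limma, against 4.35% of all genes. At an unadjusted p under 0.05, Col4a1, Col4a2 and Igfbp7 were lower for it. The genes lie head to head on chromosome 8, Col4a1 on the minus strand from 11198423 to 11312826 and Col4a2 on the plus strand from 11312805 to 11449287. The deposited transcripts share 22 bases at their starts (8:11312805-11312826, plus strand, build mm10): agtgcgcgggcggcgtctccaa. Reads were counted on both strands, so a read on these 22 bases counts for both genes.

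The type VI collagen chains, which form beaded filaments, were at 0.188 to 0.650 FPKM. Col6a1 and Col6a2 were not called by either test. Col6a3 had 49 to 177 reads in a library, at 0.278 and 0.269 FPKM with neither agent, 0.370 and 0.508 with PRDX1, 0.200 and 0.193 with RANKL, and 0.415 and 0.470 with both. It was below the limit for limma and was called higher by voom in both PRDX1 comparisons.

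Bgn, which encodes biglycan, was the only small proteoglycan above 1 FPKM, and the gene with the largest log2 fold change by PRDX1 with RANKL among the members tested by limma. It was at 4.86 and 5.18 FPKM with neither agent, 9.03 and 9.06 with PRDX1, 3.42 and 4.21 with RANKL, and 7.66 and 10.7 with both. The 4 libraries with PRDX1 were all above the 4 without. Its changes were 0.74 ± 0.13 (limma adjusted p = 0.00236) without RANKL and 1.07 ± 0.13 (limma adjusted p = 0.000131) with it, and both calls held without each library in turn.

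Dcn, which encodes decorin and is a defining gene of fibroblasts, had another pattern. It was at 0.168 and 0.119 FPKM (9 and 9 reads) with neither agent, 0.177 and 0.314 (10 and 20 reads) with PRDX1, 0.0610 and 0.0960 (3 and 6 reads) with RANKL, and 0.984 and 0.661 (82 and 50 reads) with both. The PRDX1 + RANKL libraries were thus the highest and the no PRDX1 + RANKL libraries the lowest. Voom called it higher by PRDX1 with RANKL, higher by RANKL with PRDX1 (where 5.27% of all genes were called higher), and higher for the interaction (where 5.92% were), on these few reads. Lum, which encodes lumican, had 0 reads in 6 libraries, 1 read in a PRDX1 + no RANKL library and 2 reads in a PRDX1 + RANKL library. All of these are under the limit that a count of 0 allows (3 reads), so no difference in Lum was detectable at this depth.

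The matrix and matricellular glycoproteins held the most calls: 6 of 8 tested members were called higher by PRDX1 without RANKL and 6 of 8 with it. Sparc, a collagen-binding protein that stromal cells and osteoblasts secrete, was at 4.14 and 5.10 FPKM with neither agent, 7.72 and 7.79 with PRDX1, 4.38 and 4.12 with RANKL, and 8.02 and 8.92 with both. Its changes were 0.65 ± 0.09 (limma adjusted p = 0.000734) and 0.85 ± 0.09 (limma adjusted p = 6.34e-05), and the first fell to 0.52, under the fold threshold, without no PRDX1 + no RANKL replicate 1. Fn1, fibronectin, which macrophages also make, was at 3.16 and 3.23 FPKM with neither agent, 5.13 and 5.64 with PRDX1, 1.91 and 2.21 with RANKL, and 3.47 and 4.61 with both. It rose by 0.60 ± 0.11 (limma adjusted p = 0.00318) and 0.71 ± 0.11 (limma adjusted p = 0.000703). The first call was lost without PRDX1 + no RANKL replicate 2 and the second without PRDX1 + RANKL replicate 2, at 0.55 in each case.

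Postn, periostin, a defining gene of activated fibroblasts and periosteal cells, stood at 1.15 and 1.08 FPKM with neither agent, 2.72 and 2.69 with PRDX1, 1.17 and 1.31 with RANKL, and 2.14 and 2.43 with both. The change without RANKL was 0.81 ± 0.10 (limma adjusted p = 0.000174). With RANKL the order of the libraries was the same, but the change stayed under the fold threshold of limma and passed voom. Thbs2, an anti-angiogenic thrombospondin, was at 0.389 and 0.495 FPKM with neither agent, 1.26 and 1.36 with PRDX1, 0.814 and 0.932 with RANKL, and 1.29 and 1.72 with both. It rose by 0.68 ± 0.12 (limma adjusted p = 0.0018) without RANKL. Its relative Thbs1, which also activates TGF-beta, was at 3.45 and 4.03 FPKM with neither agent, 4.86 and 6.17 with PRDX1, 2.77 and 2.43 with RANKL, and 4.65 and 6.09 with both, a rise with RANKL of 0.81 ± 0.13 (limma adjusted p = 0.000803).

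Fstl1, a secreted follistatin-like glycoprotein, had 1.10 and 1.29 FPKM with neither agent, 1.86 and 2.13 with PRDX1, 1.05 and 1.25 with RANKL, and 2.23 and 2.64 with both. The change was 0.68 ± 0.11 (limma adjusted p = 0.000717) with RANKL. Fbn1, fibrillin of the elastic microfibrils, was under the limit for limma at 0.244 to 0.625 FPKM (71 to 220 reads), and was called higher by voom in both PRDX1 comparisons.

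Ccn2 and Ccn1, secreted CCN proteins that many cell types express on adhesion and stretch, rose as well. Ccn2 was at 1.86 and 2.80 FPKM with neither agent, 4.46 and 6.60 with PRDX1, 2.36 and 2.20 with RANKL, and 5.09 and 5.52 with both. Its changes were 0.97 ± 0.16 (limma adjusted p = 0.00167) and 0.94 ± 0.16 (limma adjusted p = 0.00111). Ccn1 was at 1.30 and 1.63 FPKM with neither agent, 3.09 and 2.64 with PRDX1, 1.07 and 0.816 with RANKL, and 1.82 and 2.28 with both. Its changes were 0.65 ± 0.12 (limma adjusted p = 0.00336) and 0.65 ± 0.12 (limma adjusted p = 0.00199). Both Ccn1 calls depended on single libraries: the log2 change fell to 0.55 to 0.56 without replicate 1 of either group lacking RANKL, and to 0.54 to 0.55 without replicate 2 of either RANKL group.

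The Ccn1 window is shown because it held 3 kinds of motif and because its TATA box adjoins a GC box. It lies on chromosome 3 from 145649986 to 145650235, minus strand. Capitals mark the GC box, GGAATG read on the opposite strand, and TATAAA.
Ccn1: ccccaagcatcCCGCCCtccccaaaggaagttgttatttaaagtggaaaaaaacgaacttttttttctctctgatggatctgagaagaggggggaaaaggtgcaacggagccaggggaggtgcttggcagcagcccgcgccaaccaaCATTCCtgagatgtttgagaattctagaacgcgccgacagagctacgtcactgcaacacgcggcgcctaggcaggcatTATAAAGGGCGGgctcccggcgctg

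Of the collagen processing genes, Serpinh1 encodes the collagen chaperone HSP47. It was at 3.92 and 3.47 FPKM with neither agent, 7.62 and 7.11 with PRDX1, 3.50 and 3.43 with RANKL, and 5.03 and 6.01 with both. It rose by 0.83 ± 0.09 (limma adjusted p = 0.000136) without RANKL. The libraries with both agents were below those with PRDX1 alone and above those without PRDX1, and the change with RANKL passed voom and not the fold threshold of limma. Lox, the lysyl oxidase that cross-links collagen, was at 1.75 and 1.78 FPKM with neither agent, 2.72 and 3.02 with PRDX1, 2.18 and 2.40 with RANKL, and 3.74 and 4.51 with both. Its change with RANKL was 0.64 ± 0.10 (limma adjusted p = 0.000621), and 0.53, under the threshold, without PRDX1 + RANKL replicate 2. Loxl1, a related oxidase, had 15 to 80 reads in a library and was called by voom without RANKL.

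Among the secreted regulators, Serpinf1 (pigment epithelium-derived factor, an inhibitor of vessel growth) had the largest limma change of the 28 members without RANKL. It was at 1.52 and 2.56 FPKM with neither agent, 5.14 and 4.89 with PRDX1, 1.41 and 1.66 with RANKL, and 3.37 and 3.71 with both. The changes were 1.0 ± 0.14 (limma adjusted p = 0.000649) and 0.84 ± 0.14 (limma adjusted p = 0.00104), and both calls held without each library in turn. Its window, on chromosome 11 from 75422624 to 75422873, minus strand, is shown because it carried 3 CCAAT boxes (in capitals) and no GC box.
Serpinf1: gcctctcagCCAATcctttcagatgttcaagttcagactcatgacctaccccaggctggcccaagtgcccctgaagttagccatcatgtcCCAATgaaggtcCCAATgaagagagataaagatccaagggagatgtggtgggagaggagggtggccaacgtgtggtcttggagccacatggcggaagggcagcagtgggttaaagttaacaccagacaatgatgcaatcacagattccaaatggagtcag

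Igfbp7, a binding protein of insulin-like growth factors, had 1.70 and 2.17 FPKM with neither agent, 3.41 and 4.50 with PRDX1, 2.47 and 2.99 with RANKL, and 3.80 and 3.45 with both. It rose by 0.75 ± 0.13 (limma adjusted p = 0.00193) without RANKL. Its transcript overlaps Polr2b on the opposite strand, and reads of the 2 genes cannot be told apart where they overlap. Cxcl12, the chemokine by which stromal cells hold blood-forming cells in marrow, was at 0.411 to 0.511 FPKM in the 4 libraries without PRDX1 and at 0.809 to 1.04 in the 4 with it. It missed the fold threshold of limma and was called by voom in both comparisons.

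Igfbp4, another binding protein of insulin-like growth factors, was the exception in level and in direction. It was at 238 and 243 FPKM with neither agent, 155 and 172 with PRDX1, 45.7 and 54.0 with RANKL, and 69.4 and 71.2 with both. The 4 groups did not overlap, and RANKL rather than PRDX1 set the main divide: all RANKL libraries were below all libraries without it. The RANKL effect was -2.25 ± 0.08 (limma adjusted p = 4.53e-09) without PRDX1, where 9.96% of all genes were called lower, and -1.20 ± 0.08 (limma adjusted p = 1.69e-06) with PRDX1, where 3.98% were. PRDX1 libraries were lower than their controls without RANKL and higher with it. The difference between these PRDX1 effects was 1.05 ± 0.11 (limma adjusted p = 9.38e-05), the interaction called for 1 of 28 members, where 4.5% of all genes were called in this direction.

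The window before Igfbp4, on chromosome 11 from 99040994 to 99041243, plus strand, is given as that of the member with the highest level. It held TATAAA (in capitals), and no GC box, CCAAT, TEAD, AP-1, NF-kB or CArG match. The same was true of the Postn window, and the Sparc window held no match at all, although both genes were called higher by PRDX1. The windows thus do not set Igfbp4 apart.
Igfbp4: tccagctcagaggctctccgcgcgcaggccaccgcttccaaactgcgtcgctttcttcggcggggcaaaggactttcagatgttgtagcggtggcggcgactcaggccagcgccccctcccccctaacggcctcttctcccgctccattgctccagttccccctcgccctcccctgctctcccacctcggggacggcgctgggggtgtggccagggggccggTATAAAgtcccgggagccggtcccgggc

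**Figure D3:**
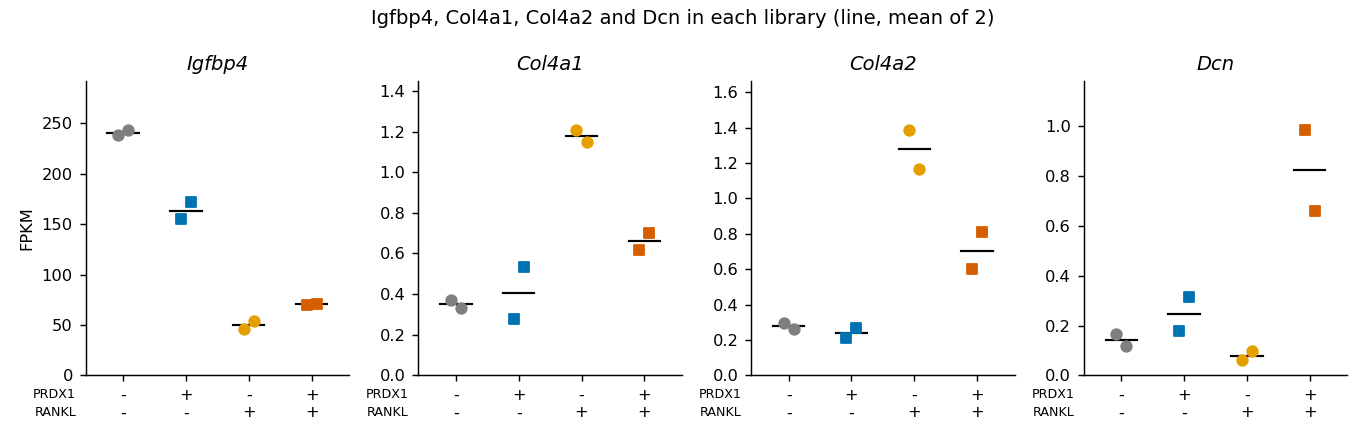
FPKM of Igfbp4, Col4a1, Col4a2 and Dcn in each of the 8 libraries, by PRDX1 and RANKL, with the group mean as a line and axes that start at 0. Igfbp4 fell with RANKL, Col4a1 and Col4a2 were highest with RANKL alone, and Dcn was highest with both agents, at 0.984 and 0.661 FPKM.

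The cell surface receptors were all of low level, and none of the 3 could enter limma. Pdgfra, the PDGF receptor that marks fibroblastic and marrow stromal cells, was at 0.0620 and 0.0480 FPKM with neither agent (12 and 13 reads), 0.117 and 0.147 with PRDX1 (24 and 34 reads), 0.0280 and 0.0530 with RANKL (5 and 12 reads), and 0.0600 and 0.0730 with both (18 and 20 reads). The PRDX1 libraries were above their controls in both comparisons, but voom called neither. Pdgfrb, the receptor of pericytes, was at 0.414 and 0.431 FPKM with neither agent, 0.545 and 0.347 with PRDX1, 0.347 and 0.618 with RANKL, and 0.442 and 0.602 with both, and its groups overlapped. Vcam1, an adhesion molecule of stroma and of some macrophages, had 14 to 79 reads in a library and was called higher by voom without RANKL, at 0.159 and 0.0990 FPKM without PRDX1 against 0.396 and 0.544 with it.

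Of the contractile genes, Acta2, smooth muscle actin, was at 4.30 and 4.28 FPKM with neither agent, 7.69 and 6.88 with PRDX1, 3.66 and 3.16 with RANKL, and 6.01 and 6.84 with both. It rose by 0.65 ± 0.09 (limma adjusted p = 0.000655) without RANKL and by 0.75 ± 0.09 (limma adjusted p = 0.000132) with it, and the first call was lost without PRDX1 + no RANKL replicate 1 (0.58). Cald1, caldesmon, which binds actin and tropomyosin, was at 1.58 and 1.58 FPKM with neither agent, 3.15 and 3.04 with PRDX1, 1.16 and 1.18 with RANKL, and 3.03 and 3.14 with both. It rose by 0.67 ± 0.09 (limma adjusted p = 0.000311) and 0.91 ± 0.09 (limma adjusted p = 1.92e-05).

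Myl9, a myosin light chain, was less even: 1.32 and 1.09 FPKM with neither agent, 1.27 and 2.05 with PRDX1, 0.749 and 1.42 with RANKL, and 2.33 and 2.37 with both. The groups without RANKL overlapped. With RANKL the change was 0.70 ± 0.17 (limma adjusted p = 0.00827), and it fell to 0.47 without no PRDX1 + RANKL replicate 1. Tagln, transgelin, at 5.11 to 8.61 FPKM, was called by voom without RANKL and not with it. The difference between these PRDX1 effects passed neither test (interaction -0.31 ± 0.14, limma adjusted p = 0.165). Tagln overlaps Pcsk7 on the opposite strand. Tpm2, a tropomyosin at 1.08 to 1.75 FPKM, and Cnn1, calponin, with 2 to 17 reads, were called by neither test.

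The window of Myl9, on chromosome 2 from 156775214 to 156775463, plus strand, was the 1 member window with a CArG box. Capitals mark, in order, an NF-kB match, the CArG box and 3 GC boxes.
Myl9: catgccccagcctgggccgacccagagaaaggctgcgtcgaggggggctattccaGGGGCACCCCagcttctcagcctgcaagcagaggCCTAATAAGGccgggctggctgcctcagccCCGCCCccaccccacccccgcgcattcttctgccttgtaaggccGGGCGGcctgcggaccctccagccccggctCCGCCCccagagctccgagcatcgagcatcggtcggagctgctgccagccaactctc

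RANKL left most members within the test's limits. Without PRDX1, Col4a1 and Col4a2 were higher and Igfbp4 lower, and the other 25 of 28 were not called. Most genes were alike in this, since 9152 of all 11700 genes tested were not called. By unadjusted p under 0.05, 5 members were higher and 7 lower, and no share of all genes was counted at this limit. The median log2 fold change of the 28 was -0.05, beside 0.10 for all genes. With PRDX1, Igfbp4 was lower and 0 members were called higher by limma, against 4.52% of all genes. At an unadjusted p under 0.05, Col4a2 and Lox were higher and 5 members lower (Ccn1, Fn1, Igfbp4, Serpinf1 and Serpinh1), and voom called Dcn, Col4a1 and Col4a2 higher and Igfbp4 and Serpinf1 lower (6.78% of all genes were called lower). Voom added Thbs2 to the members higher with RANKL alone, where 11.9% of all genes were called higher, and Fn1, Thbs1 and Ccn1 to those lower, where 14.4% were.

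The summed level of the 8 defining stromal genes was mostly that of Col1a1, Col1a2 and Postn, so it follows the calls given for them. The 8 defining stromal genes (Col1a1, Col1a2, Col3a1, Dcn, Lum, Postn, Pdgfra and Pdgfrb) summed to 10.2 ± 1.86 FPKM (SD, n = 2) with neither agent, 19.2 ± 0.0247 with PRDX1, 9.76 ± 1.54 with RANKL, and 19.5 ± 2.79 with both. PRDX1 groups were 1.88-fold and 2.0-fold above their controls, while RANKL groups were at 0.957 and 1.02 of theirs. After scaling the libraries to the same upper quartile the PRDX1 folds were 1.93 and 2.07. The 37 members other than Igfbp4 summed to 60.2 ± 5.67, 108 ± 4.76, 58.0 ± 2.82 and 105 ± 12.4 FPKM in the same order, 1.79-fold and 1.80-fold by PRDX1. Of the defining genes, Pdgfrb, whose groups overlapped, and Lum, at 0 to 2 reads, did not have all PRDX1 libraries above their controls. Dcn and Pdgfra did, but their levels also differed by RANKL: Dcn was highest with both agents and Pdgfra with PRDX1 alone. No p is given for these sums.

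**Figure D4:**
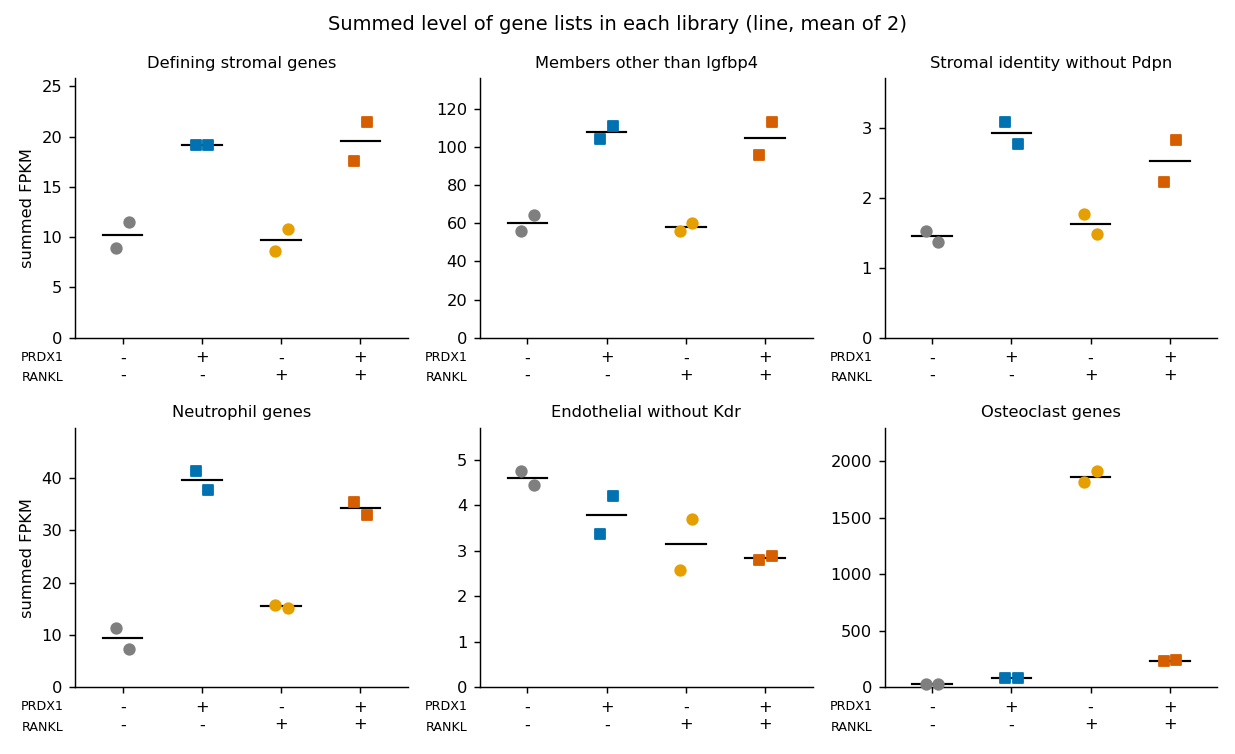
Summed FPKM of 6 gene lists in each library, by PRDX1 and RANKL, with the group mean as a line and axes that start at 0. The defining stromal genes, the other members, the stromal identity genes and the neutrophil genes (S100a8, S100a9, Elane and Mpo) are all higher in the 4 libraries with PRDX1. The sum of the endothelial genes without Kdr, in which Egfl7 is the highest gene, is not, and the osteoclast genes are highest with RANKL alone.

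Other genes that mark stromal cell identity were mostly close to 0. Of 20 stromal identity genes, 6 to 8 had 0 reads in a library and 8 to 11 had at most 3, and Thy1 and Tcf21 had 0 reads in all 8. Pdpn, podoplanin, which activated macrophages also express, stood apart at 5.02 and 4.89 FPKM with neither agent, 41.2 and 38.1 with PRDX1, 4.86 and 3.29 with RANKL, and 39.9 and 39.8 with both. Its log2 changes by PRDX1 were 2.77 ± 0.12 (limma adjusted p = 2.35e-07) and 3.03 ± 0.12 (limma adjusted p = 4.9e-08). Without Pdpn the list summed to 1.37 to 1.76 FPKM in the 4 libraries without PRDX1 and to 2.23 to 3.09 in the 4 with it. Of 9 genes of the list that voom could test, it called 5 higher by PRDX1 without RANKL and 3 with it, and 0 lower. Of all genes, voom called 6.06% higher and 2.64% lower without RANKL, and 9.3% and 5.16% with it. The adipocyte list summed to at most 0.039 FPKM. The osteoblast list summed to 1.29 to 2.21 FPKM, with Bglap2, Dmp1 and Sost at 0 reads in all libraries. Without RANKL its groups overlapped (1.62 and 1.29 FPKM without PRDX1, 1.36 and 1.84 with it), and limma and voom called 0 genes of the 2 tested, with 0 also at an unadjusted p under 0.05 in limma. With RANKL it was 1.55 and 1.35 FPKM without PRDX1 and 2.21 and 2.18 with it, and voom called Tnfrsf11b, the RANKL decoy receptor osteoprotegerin, higher there (0.430 and 0.185 to 0.632 and 0.874 FPKM).

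The smooth muscle and pericyte list (13 genes that are not members) summed to 43.7 to 46.4 FPKM without RANKL, 114 and 110 with RANKL alone and 70.6 and 72.9 with both agents. Most of this was Tpm1, a tropomyosin that many cell types make, which with RANKL fell from 111 and 106 to 66.6 and 68.0 FPKM by PRDX1 (log2 change -0.69 ± 0.05, limma adjusted p = 2.92e-06). Of 4 genes tested, Actg2, a smooth muscle actin, was called higher without RANKL, at 0.362 and 0.496 against 1.25 and 1.11 FPKM. Cspg4, the pericyte proteoglycan NG2, was called higher with RANKL, at 0.784 and 0.922 against 1.73 and 1.99 FPKM. Smtn, smoothelin, was not called but was lower without RANKL by unadjusted p under 0.05, at 2.64 and 2.99 against 2.09 and 1.91 FPKM. Of 7 genes in voom, 3 were above 0 without RANKL and 4 with it.

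Of the 12 endothelial genes, Kdr, a VEGF receptor, was the highest with RANKL, and it was at 0.975 and 1.16 FPKM with neither agent, 2.004 and 2.05 with PRDX1, 3.597 and 3.28 with RANKL, and 4.63 and 4.90 with both. Its PRDX1 libraries were above their controls in both comparisons, and limma called neither, although both had an unadjusted p under 0.05. For the endothelial genes without Kdr the sum was 3.36 to 4.74 FPKM without RANKL and 2.59 to 3.70 with it, with Egfl7 the highest of these genes in every library. In FPKM the PRDX1 libraries lay below their controls without RANKL and between them with it. In CPM (reads scaled to the library total, without regard to length) the order was different, and both PRDX1 libraries lay above their controls, with 11.2 and 10.6 against 9.72 and 8.45 CPM without RANKL and 7.43 and 8.54 against 5.72 and 7.18 with it. Of 7 genes of the list that voom could test, it called Kdr and Vwf higher and Egfl7 lower by PRDX1 without RANKL, and Flt1 and Cdh5 higher with RANKL. The voom medians of the 7 were 0.64 and 0.66. Vwf, Flt1 and Cdh5 were at or under 0.594 FPKM in every library.

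Some genes of neutrophils were also higher with PRDX1. The 4 summed here are those of a 14-gene list of other blood cells that limma tested. Limma called all 4 higher without RANKL, so the rise of their sum there follows from those calls. The granule and S100 genes of neutrophils S100a8, S100a9, Elane and Mpo summed to 11.4 and 7.32 FPKM with neither agent, 41.2 and 37.7 with PRDX1, 15.7 and 15.1 with RANKL, and 35.4 and 32.8 with both. S100a8 and S100a9, which activated macrophages can also express, made up most of this. Their PRDX1 effects were smaller with RANKL. The interaction was -0.95 ± 0.20 (limma adjusted p = 0.008) for S100a8 and -0.78 ± 0.21 (limma adjusted p = 0.0216) for S100a9, where 4.35% of all genes were called lower. The granule genes Elane and Mpo were called higher by limma as well, both without RANKL and Mpo with it, where it went from 0.507 and 0.412 to 1.17 and 1.74 FPKM (0.74 ± 0.13, limma adjusted p = 0.000978). Elane went from 0.592 and 0.0520 to 1.01 and 1.64 FPKM without RANKL (0.83 ± 0.23, limma adjusted p = 0.0214). The neutrophil surface gene Ly6g, which is not in the sum, was at 0.0740 and 0.0520 FPKM with neither agent and 0.279 and 0.186 with PRDX1, on at most 8 reads, and its groups with RANKL overlapped. Voom also called Cd79a, a B cell gene, higher by PRDX1 without RANKL, at 0.407 and 0.216 against 0.673 and 0.911 FPKM.

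The osteoclast list (8 genes such as Ctsk and Acp5) summed to 33.5 and 32.4 FPKM with neither agent, 84.1 and 79.7 with PRDX1, 1813 and 1909 with RANKL alone and 234 and 241 with both. Of all genes, limma called 3.8% higher and 1.99% lower by PRDX1 without RANKL, and 6.03% and 4.17% with it. The list moved with the members by PRDX1 without RANKL, where limma called 3 of 7 tested genes higher, and against them with RANKL, where all 7 were called lower. The 3 were Atp6v0d2, a proton pump subunit (6.96 and 7.02 to 24.5 and 21.0 FPKM), Acp5, the tartrate-resistant phosphatase (24.2 and 23.1 to 53.9 and 53.5), and Dcstamp, a fusion protein (1.72 and 1.55 to 4.42 and 3.49). The macrophage list summed to 18745 to 20831 FPKM without RANKL, 12026 and 11623 with RANKL alone and 15758 and 15337 with both. By PRDX1 without RANKL 1 of its 14 genes was called lower (Mrc1) and 0 higher, with a median log2 change of 0.04. With RANKL 8 were called higher and 0 lower, with a median of 0.83, and voom gave the same counts in both comparisons. At an unadjusted p under 0.05, 5 were higher and 3 lower without RANKL and 12 were higher and 1 lower with it. The 8 included the Fc receptor Fcgr1, from 9.07 and 7.90 to 50.1 and 52.4 FPKM, and the complement gene C1qa, from 46.8 and 48.5 to 162 and 161. The part that other cells have in the level of the 38 members was not tested.

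A wider list of 57 matrix genes that are not members was read for comparison, of which 19 could be tested. Their median change by PRDX1 was 0.07 (log2) in the absence of RANKL and 0.10 in its presence. Without RANKL 2 were higher and 3 lower by limma, 8 were higher and 8 lower at an unadjusted p under 0.05, and voom called 10 higher and 4 lower of 38. Of all genes, 3.8% were called higher and 1.99% lower there by limma, and 6.06% and 2.64% by voom. Ecm1 rose from 15.8 and 19.8 to 42.7 and 39.9 FPKM, Col18a1 from 4.17 and 4.41 to 7.83 and 7.84, and Nid2 fell from 5.08 and 5.41 to 2.74 and 3.19. With RANKL 2 were higher, Spp1 and Ecm1, and 0 lower by limma, 8 were higher and 0 lower at an unadjusted p under 0.05, and voom called 12 higher and 3 lower of 38. Of all genes, 6.03% were called higher and 4.17% lower there by limma, and 9.3% and 5.16% by voom. Spp1, osteopontin, which macrophages secrete, went from 364 and 344 FPKM with RANKL to 828 and 801 with both agents. Enzymes of collagen synthesis, such as prolyl and lysyl hydroxylases, gave 0 calls by PRDX1 among 11 tested with limma in either comparison. At an unadjusted p under 0.05, 4 were higher and 1 lower without RANKL and 5 were higher and 1 lower with it, and voom called 4 higher of 19 in each and 1 lower with RANKL.

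The TGF-beta pathway, a main inducer of collagen genes in mesenchymal cells, was read from 20 genes, of which 18 could be tested. By PRDX1, 5 were higher and 0 lower without RANKL, and 5 higher and 0 lower with it, in limma. Of all genes, limma called 3.8% higher and 1.99% lower without RANKL, and 6.03% and 4.17% with it. Voom called 6.06% and 2.64% without RANKL, and 9.3% and 5.16% with it. At an unadjusted p under 0.05, 7 were higher and 4 lower without RANKL and 11 were higher and 2 lower with it, and voom called 6 and 8 higher of 20 and 0 lower. The medians were 0.13 and 0.26. Smad6, an inhibitor of the pathway, was at 1.29 and 1.29 FPKM with neither agent, 5.40 and 5.62 with PRDX1, 1.67 and 2.19 with RANKL, and 4.62 and 4.20 with both. Skil, another inhibitor, rose from 10.9 and 11.7 to 32.0 and 31.6 FPKM without RANKL.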

How the data were processed

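The authors aligned the reads with HISAT2 to mm10 and counted them with HOMER on RefSeq exons, on both strands, with 1 transcript kept per gene; versions are not given in the sources used here. The deposited values are FPKM of 8 libraries, divided by the authors by transcript length and library total. For 100% of the genes checked in each library, FPKM times length gave whole reads (tolerance 0.1), with totals of 27284693 to 46171566. Floors (3 reads) cover counting error only.

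In R 4.3.3, limma 3.58.1 was fitted to log2(FPKM + 1) with an intensity trend in 1 model of the 4 groups (4 residual degrees of freedom), for 11700 genes whose FPKM averaged 0.5 or more. Calls needed a Benjamini-Hochberg adjusted p under 0.05 and a change of at least 1.5-fold. The shares of all genes called that are given with the members apply to every other list. No share of all genes was counted at an unadjusted p under 0.05. The 4 pairwise effects and the interaction were tested. As an alternative, limma voom with TMM scaling was fitted to the recovered reads of 13405 genes with at least 10 reads in at least 2 libraries. The scripts were tested on simulated data. Other settings were the pseudocount, the filter, 2 scalings, the groups in the fit, a replicate block by the labels' or the header's numbers, and each library left out.

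Per-library FPKM is given for members called in limma and for the defining stromal genes; log2 fold changes are given for called pairs. Of each other list, up to 3 called genes with the largest change could be named with values; marker genes named at or near 0 or for voom calls alone, and Kdr, Mpo and Smtn, were chosen after their values were seen. The members and all lists were chosen with earlier results of these data known. The values of 1 gene of the TGF-beta list are not reported here.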

Additional observations from a re-analysis of the deposited data

Results flagged for a closer look

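The PRDX1 effect on Igfbp4 differed between cultures with and without RANKL. PRDX1 libraries had 155 and 172 FPKM against 238 and 243 without RANKL, and 69.4 and 71.2 against 45.7 and 54.0 with it. The interaction was 1.05 on the log2(FPKM + 1) scale (limma adjusted p = 9.38e-05), and it lay between 0.93 and 1.17 over all alternatives. This was not particular to Igfbp4. Limma called the interaction higher for 7 of the 14 macrophage genes and 0 lower, where 4.5% of all genes were called higher. Of these, Mrc1 went with PRDX1 from 248 and 216 to 104 and 110 FPKM without RANKL. With RANKL it went from 22.0 and 18.5 to 37.3 and 36.5 FPKM.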

How the results depend on the processing

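Members called by PRDX1 rose with voom on recovered reads from 15 to 24 without RANKL and from 15 to 26 with RANKL, and for RANKL without PRDX1 from 3 to 7, for RANKL with PRDX1 from 1 to 5, and for the interaction from 1 to 3. A pseudocount of 0.1 gave 6 and 2 calls by RANKL without and with PRDX1, one of 0.5 gave 2 with PRDX1, a mean FPKM of at least 1 left 1 without PRDX1, since Col4a1 and Col4a2 were not tested, and no filter gave 2 for the interaction (Dcn and Igfbp4). The other counts stayed within 1.5 times of those reported.

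Without 1 library at a time, PRDX1 calls ranged from 11 to 15 without RANKL and from 11 to 17 with RANKL. They stayed at 3 for RANKL without PRDX1, at 1 for RANKL with PRDX1 and at 1 for the interaction. Of the 15 PRDX1 calls, 9 without RANKL and 10 with RANKL held without every single library. Igfbp4 became called lower by PRDX1 without RANKL when PRDX1 + no RANKL replicate 2 was left out (-0.63) and higher with RANKL when no PRDX1 + RANKL replicate 2 was left out (0.61). Without a filter, Col1a1 lost its call without RANKL (limma adjusted p = 0.0654). No log2 fold change of a called member was reversed under the alternatives run.

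Same-numbered libraries deviated together by correlations of 0.00847 to 0.0965, so by the labels' numbers they share only a number. The replicate block gave 15, 15, 3, 1 and 1 calls. The table's header numbers 3 of the 8 libraries differently, and a replicate block on the header numbers, chosen after seeing the data, gave the same counts. Where 1 library was left alone in its group, it was assumed to vary as the others do. With few reads for Dcn, Pdgfra, Cnn1 and Lum, depth limits what can be said of them.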
